A study of Mus musculus with 16 samples.

Results

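The 32 genes described here encode the enzymes that make cholesterol and fatty acids, together with the proteins that control and move the products. They were taken as a fixed list of gene symbols and account for 32 of the 46403 symbols in the deposited tables. The sterol branch holds 19 of them and the fatty acid branch 6. Another 5 are regulators (Srebf1, Srebf2, Scap, Insig1 and Insig2), and the last 2 are Stard4 and Cyp46a1, which handle cholesterol after it is made. RNA was sequenced from the CA1 subfield of the mouse hippocampus in 8 Fmr1-KO and 8 WT libraries. Fmr1-KO mice carry a knockout of Fmr1, which encodes the RNA-binding protein FMRP, and the WT mice are given as C57BL/6. Both genotypes shared their handling: all 16 libraries came from animals kept as yoked controls for active place avoidance. The labels used here give no age or sex and are silent on littermates and on how the knockout was made. They name each library by a number with the letter B or D, but do not say that libraries of the same number are separate animals, so the p-values measure the spread between these libraries.

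Cholesterol is built from acetyl units in the cytosol and endoplasmic reticulum. Early steps make mevalonate and then isoprenoid units, farnesyl diphosphate is joined into squalene, and squalene is closed into lanosterol and trimmed to cholesterol. Fatty acids are built from the same acetyl units by a shorter set of enzymes, followed by elongation and desaturation. The transcription factors of the SREBP family raise both sets of genes when sterols are low: SCAP carries them out of the endoplasmic reticulum, and INSIG proteins hold them there when sterols are plentiful. The adult brain makes its own cholesterol, because plasma lipoproteins do not cross the blood-brain barrier, and much of it lies in myelin. Neurons dispose of the excess by turning it into 24S-hydroxycholesterol.

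SREBP proteins bind a short element in promoters of this pathway, often beside a site for the CCAAT-binding factor NF-Y. RefSeq promoters on GRCm38.p6 (250 bases before to 50 after the start) were matched by symbol for 26 of the 32 genes, as 34 promoters. The genes without an entry are Fdft1, Fdps, Scd1, Scd2, Sqle and Stard4. The 250 bases before the start are shown 5′ to 3′ for 3 genes, Hmgcs1, Idi1 and Fasn. Hmgcs1, the HMG-CoA synthase of the sterol branch, is the single member with the searched sterol element. Idi1 is the member with the smallest p in the genotype comparison, and Fasn is the synthase of the other branch. Capitals mark TCACNCCAC, the sterol regulatory element, and CCAAT, each on either strand. Hmgcs1 lies at chr13:119690101-119690350 (plus strand), Idi1 at chr13:8885356-8885605 (plus strand) and Fasn at chr11:120824548-120824797 (minus strand), and the Idi1 window reaches into the gene as GENCODE M21 draws it.
Hmgcs1: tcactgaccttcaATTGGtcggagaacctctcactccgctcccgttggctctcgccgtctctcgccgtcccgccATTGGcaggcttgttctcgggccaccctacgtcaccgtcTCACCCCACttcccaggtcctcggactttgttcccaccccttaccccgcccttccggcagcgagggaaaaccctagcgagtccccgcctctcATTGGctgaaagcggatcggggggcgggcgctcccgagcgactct
Idi1: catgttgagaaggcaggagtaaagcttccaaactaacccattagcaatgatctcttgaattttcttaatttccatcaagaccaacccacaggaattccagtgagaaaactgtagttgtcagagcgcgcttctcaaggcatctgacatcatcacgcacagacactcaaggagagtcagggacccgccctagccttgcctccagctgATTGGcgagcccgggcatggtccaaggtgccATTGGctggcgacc
Fasn: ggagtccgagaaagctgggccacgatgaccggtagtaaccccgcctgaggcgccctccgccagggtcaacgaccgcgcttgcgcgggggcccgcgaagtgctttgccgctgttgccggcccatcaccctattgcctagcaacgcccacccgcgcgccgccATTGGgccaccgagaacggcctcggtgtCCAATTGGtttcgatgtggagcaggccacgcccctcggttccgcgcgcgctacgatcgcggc
In Hmgcs1 the element begins 137 bases before the start, among 3 CCAAT matches at 237, 176 and 45 bases before it. Idi1 has CCAAT matches 45 and 14 bases before its start. In Fasn the matches begin 90, 62 and 59 bases before the start, and the last 2 overlap. Over the full windows, TCACNCCAC was found in 1 of 34 member promoters (2.94%) and in 408 of all 32851 (1.24%). CCAAT was found in 23 of the 34 (67.6%) against 37.4% of all promoters, and GGGCGG, a GC box, in 25 (73.5%) against 35.7%. These are matches of letters and no measure of binding. Functional elements often differ from this spelling.

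The libraries held between 515103 and 3275003 estimated counts. The shallowest were WT replicate 3 (878484) and WT replicate 6 (515103), and all others reached at least 1480966. Both also differed in composition: their 10 most abundant genes took 10.35% and 31.59% of counts, against 3.73% to 6.06% in the other 14. Protein-coding genes took 80.67% and 58.38%, against 87.59% to 91.8%. For most members the genotype difference is therefore also given without this pair, and the plot of log2 fold changes shows both values for all 32. Fmr1 itself separated the labels, with 8.44 to 32 CPM in the Fmr1-KO libraries and 39.6 to 99.7 CPM in the WT libraries. Fmr1 reads were thus fewer but not absent in the Fmr1-KO libraries, and where they lie relative to the disrupted part of the gene was not tested. CPM here is a count scaled to a common library size after TMM scaling, which corrects for composition. At this depth 23 of the 32 members had a median count under 100 over the 14 deeper libraries. Levels were averaged over those 14, and levels are compared between genes only in TPM, which is corrected for transcript length.

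All 32 members were detected. In TPM, the most abundant was Scd2, the desaturase found in brain, at 217 ± 34.0 (mean ± SD, n = 14 libraries). Cyp46a1, the neuronal enzyme that makes 24S-hydroxycholesterol, followed at 174 ± 45.9 TPM, with a range that overlapped that of Scd2. Fasn, the fatty acid synthase, stood at 101 ± 17.6 TPM and Srebf2, the SREBP gene linked most closely to sterol synthesis, at 94.6 ± 16.3 TPM, so that these neighbours did not differ beyond their spread. The most abundant gene of the sterol branch was Hmgcs1, HMG-CoA synthase, at 67.0 ± 16.7 TPM. Acly, which supplies cytosolic acetyl-CoA to both branches, reached 62.7 ± 18.9 TPM.

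The other 18 genes of the sterol branch were lower than Hmgcs1 in mean TPM. Next came Fdps (31.9 ± 10.4 TPM), which makes farnesyl diphosphate, Tm7sf2 (29.8 ± 11.8 TPM), a sterol C14 reductase, and Msmo1 (29.3 ± 13.4 TPM), a sterol C4 oxidase. The lowest in the branch were Mvd at 7.88 ± 4.54 TPM and Nsdhl at 5.36 ± 2.69 TPM. Stard4, a carrier of cholesterol between membranes, was the lowest member of all at 4.73 ± 2.92 TPM. Within gene pairs, Scd2 exceeded Scd1 (12.1 ± 2.14 TPM) in each of the 14 libraries, since their ranges were 151 to 277 and 9.47 to 15.9 TPM. Srebf2 also lay wholly above Srebf1 (62.9 to 117 against 12.8 to 58.5 TPM). Insig2 (13.1 to 67.5 TPM) and Insig1 (10.2 to 24.3 TPM) overlapped. The members of such a pair share sequence, and how kallisto divided shared reads between them adds uncertainty to each.

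**Figure D1:**
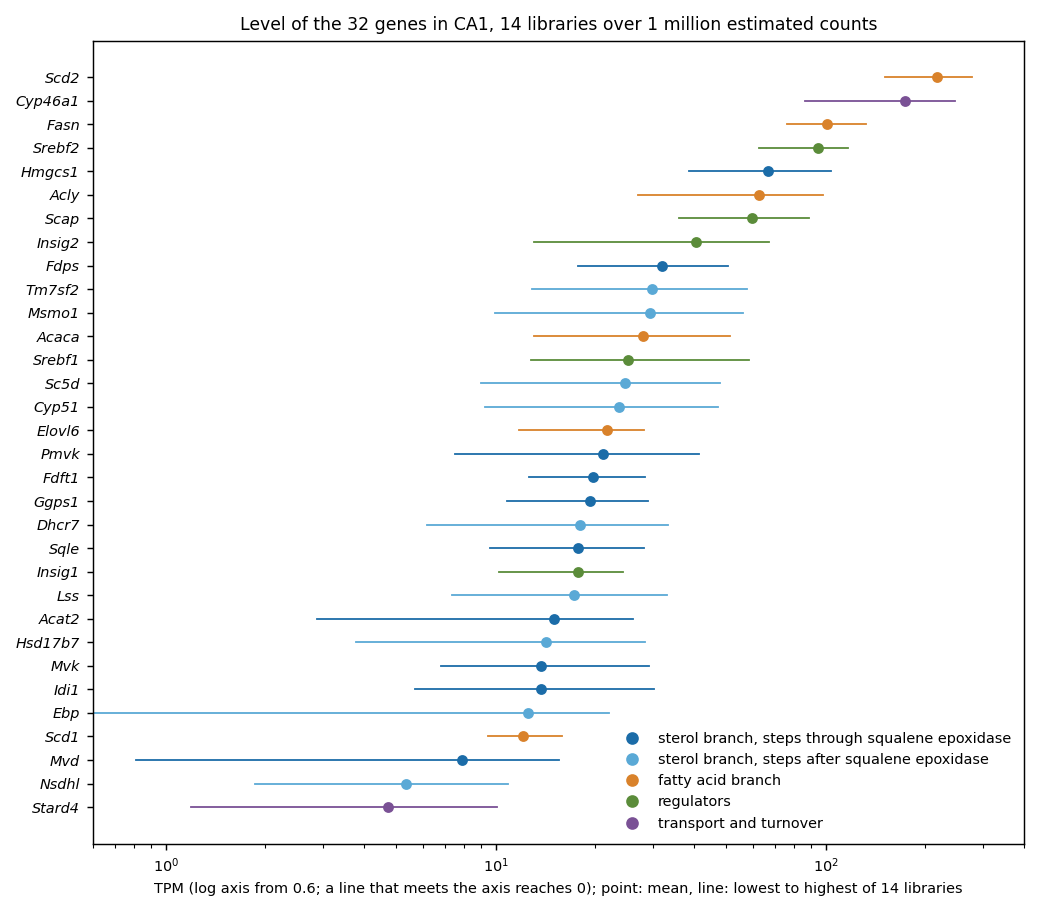
Level of the 32 genes in TPM on a logarithmic axis, with the mean as a point and the lowest to the highest of 14 libraries as a line. Scd2, Cyp46a1, Fasn and Srebf2 stand at the top with means of 94.6 to 217 TPM, and the sterol genes other than Hmgcs1 have means from 5.36 to 31.9 TPM. The lowest value of Ebp is 0.

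Between the genotypes, no member passed the test. All 32 passed the filter on low counts, and edgeR's quasi-likelihood test with Benjamini-Hochberg adjustment called 0 of them, against 2 of 11515 genes (0.0174%). The smallest adjusted p of a member was 0.515 (edgeR), for Idi1. At an unadjusted p under 0.05, edgeR found 2 members lower in Fmr1-KO (Idi1 and Sqle), where 4.28% of all genes were lower (493 genes), and 0 higher, where 3.61% of all genes were higher (416 genes). Scaled by library totals alone, those counts over all genes were 348 lower and 419 higher. The count of lower members fell from 2 to 1 without any one of Fmr1-KO replicates 4, 7 and 8 and WT replicates 2 and 8. Idi1 was among them whichever single library was dropped. Sqle was not: on the Fmr1-KO side it stayed only when replicate 3, 5 or 6 was dropped. On the WT side it stayed only when replicate 7 was. In the remaining fits Pmvk, Insig2, Scd2 or Elovl6 took its place in the count. DESeq2 and limma-voom with quality weights also called 0 members (0.0955% and 0.0608% of genes). In DESeq2, however, only Fasn, Scd2 and Srebf2 received an adjusted p, so the other members could not be called. DESeq2 and limma-voom had 4 and 6 members lower at an unadjusted p under 0.05 (5.22% and 6.29% of genes).

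The log2 fold changes, Fmr1-KO over WT, were below 0 for 24 of the 32 members, with a median of -0.16. Over all tested genes 51.9% were below 0 and the median was -0.01. In the sterol branch 15 of 19 were below 0 (median -0.20), and in the fatty acid branch 4 of 6 (median -0.11). Regulators had 3 of 5 below 0 and a median of -0.01. When 1 library was left out, the sterol median moved most without Fmr1-KO replicate 4 (-0.35) or WT replicate 4 (-0.32), and the fatty acid median without WT replicate 3 (-0.00), WT replicate 6 (-0.05) or Fmr1-KO replicate 4 (-0.06). Co-expressed genes are not independent of each other, so these counts describe the 32 genes and carry no test. Without WT replicates 3 and 6 the count was 21 of 32 with a median of -0.11, against 50.3% of 11866 genes and a median of -0.00. Without WT replicate 3 alone it was 22 of 32, with a median of -0.09.

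The 95% intervals show what sizes of difference this depth leaves possible. For 12 of the 32 genes the interval lay within 1.5-fold in either direction, among them Hmgcs1, Fdft1, Cyp51, Acly, Acaca, Fasn, Scd2, Srebf2 and Scap. For 26 it lay within 2-fold. The other 6 were Mvk, Pmvk, Mvd, Idi1, Ebp and Dhcr7, all in the sterol branch. Without WT replicates 3 and 6, 15 intervals lay within 1.5-fold and 28 within 2-fold, and the 4 beyond it were Pmvk, Idi1, Nsdhl and Ebp.

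**Figure D2:**
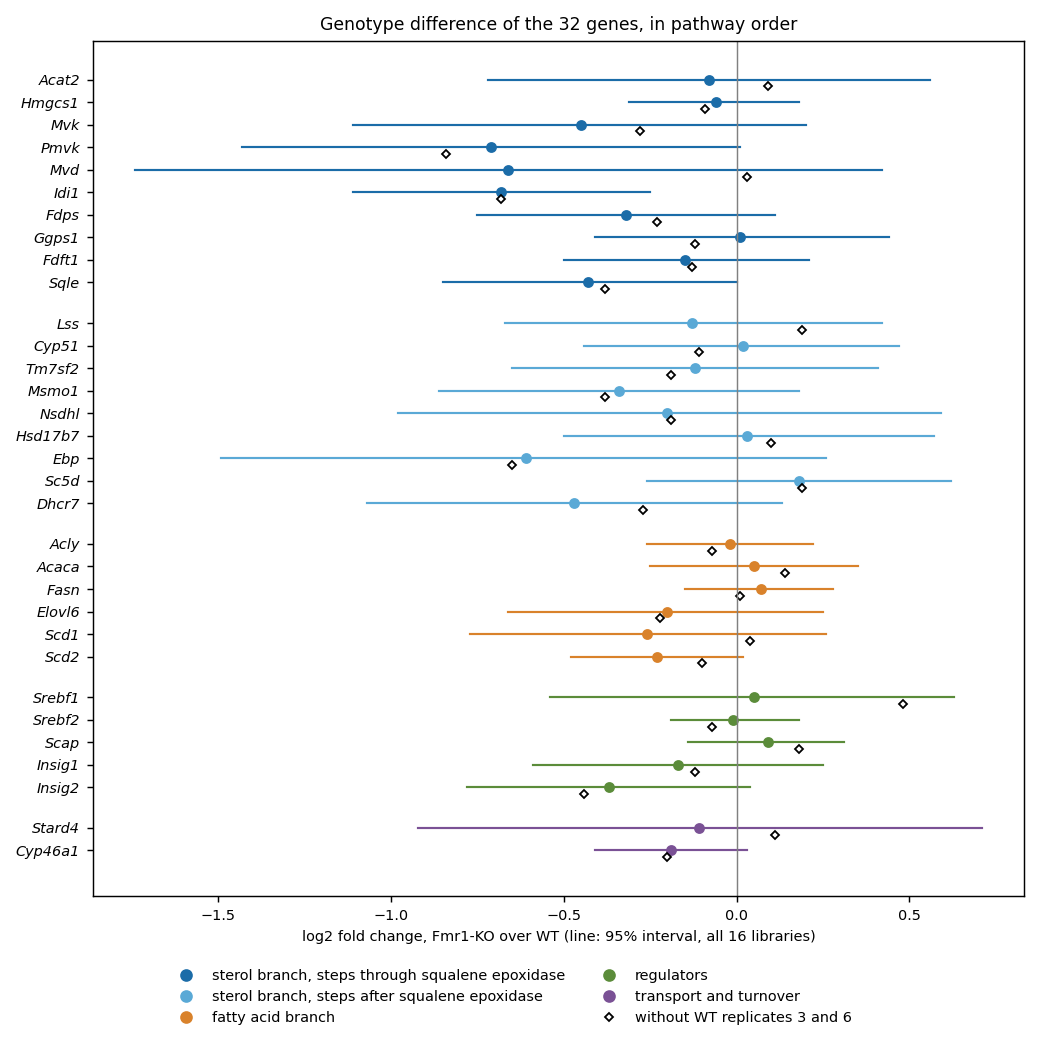
Log2 fold change of each gene, Fmr1-KO over WT, in pathway order, with its 95% interval from all 16 libraries. Open diamonds are the values without WT replicates 3 and 6. The steps through squalene epoxidase lie mostly left of 0, the intervals of Idi1 and Sqle end below 0, and the diamonds of Mvd, Lss, Scd1 and Srebf1 stand apart from their points.

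The steps from acetyl-CoA through squalene epoxidase (Sqle) comprise 10 genes, of which 9 were below 0, with a median log2 fold change of -0.37. Ggps1 was the exception at 0.01. The median was -0.18, and 8 of 10 were below 0, without WT replicates 3 and 6, and it was also -0.18 without WT replicate 3 alone. In bulk tissue such a value cannot tell fewer cells of a type from less RNA per cell.

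Idi1 encodes isopentenyl-diphosphate isomerase, which interconverts the isoprenoid building blocks, and lies at chr13:8885501-8892451 (GRCm38, plus strand). Its level in Fmr1-KO was 8.75 CPM at the lowest, 14.9 at the median and 21.9 at the highest. In WT it was 21.1, 23.8 and 29.5 CPM. All 8 Fmr1-KO libraries lay below the WT median and 6 of 8 below the lowest WT library, with the remaining overlap resting on shallow WT replicate 6. The log2 fold change was -0.68 (SE 0.21, 95% interval -1.11 to -0.25), an unadjusted p of 0.00332 and an adjusted p of 0.515 in edgeR.

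Without the shallow pair Idi1 kept that value: -0.68 (SE 0.21), with an unadjusted p of 0.00368 and an adjusted p of 0.599 in edgeR. The lowest WT level was then 22.6 CPM, above all 8 Fmr1-KO libraries. Such a complete separation of the genotypes in CPM was seen in 16 of 11866 genes (0.135%) and in 1 of the 32 members. With all 16 libraries it was seen in 5 of 11515 genes (0.0434%) and in 0 members. In TPM, Idi1 did not separate the deeper libraries completely. There WT replicates 5 and 7 lay within the Fmr1-KO range of 5.7 to 14.9 TPM, and the other deeper WT libraries lay above it. The unadjusted p of Idi1 was under 0.05 in each of 29 alternative settings, with log2 fold changes from -0.80 to -0.59. Its adjusted p ranged from 0.164 to 0.812 in the tool of each setting, except DESeq2 on all 16 libraries, which gave none.

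Sqle encodes squalene epoxidase, the first oxygen-requiring step and a point of control, at chr15:59315077-59331192. In Fmr1-KO its level was 15.5, 21.0 and 41.3 CPM (lowest, median, highest), and in WT 28.6, 32.7 and 37.4 CPM. The Fmr1-KO libraries spread widely: 5 lay below the lowest WT library and 1 above the highest. The difference was -0.43 on the log2 scale (SE 0.20, unadjusted p 0.0476, adjusted p 0.628 in edgeR). Without the shallow pair it was -0.38, with an unadjusted p of 0.08, and in 11 of 29 alternative settings the unadjusted p was under 0.05.

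Pmvk, phosphomevalonate kinase at chr3:89454541-89469013, had the lowest log2 fold change of the 32. Its level was 3.37, 8.26 and 13.6 CPM in Fmr1-KO and 3.01, 11.2 and 21.4 CPM in WT. The ranges overlapped, and the lowest WT value was that of shallow replicate 6. Its log2 fold change was -0.71 (SE 0.35, unadjusted p 0.052) and, without the shallow pair, -0.84 (SE 0.33, unadjusted p 0.0178, adjusted p 0.644 in edgeR). All 8 Fmr1-KO libraries then lay below the WT median, and 4 below the lowest WT library.

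Mvd, mevalonate diphosphate decarboxylase at chr8:122433601-122443422, depended on 1 library. It stood at 0.673, 6.94 and 12.9 CPM in Fmr1-KO and at 3.23, 8.18 and 43.2 CPM in WT, the last from WT replicate 3. On the log2 scale the difference was -0.66 (SE 0.52) with all 16 libraries, -0.04 without WT replicate 3 and 0.03 (SE 0.44) without the shallow pair. Mvk, mevalonate kinase, likewise had its highest level in WT replicate 3 (30.0 CPM, against 6.02 to 16.8 in the other WT libraries), with -0.45 (SE 0.32) in all 16 libraries and -0.28 in 14.

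Hmgcs1, at chr13:119690379-119708260, was measured most precisely in this branch. Its level was 85.5, 108 and 162 CPM in Fmr1-KO and 92.5, 121 and 137 CPM in WT. The groups overlapped, and the log2 fold change was -0.06 (SE 0.12, 95% interval -0.31 to 0.18), and -0.09 without the shallow pair. The lowest WT value was that of shallow replicate 3, and 4 of 8 Fmr1-KO libraries lay below the lowest deeper WT library (110 CPM). Fdps, at chr3:89093588-89101959, stood at 12.2, 14.6 and 26.6 CPM in Fmr1-KO and at 17.6, 19.6 and 30.0 CPM in WT. Although 6 of 8 Fmr1-KO libraries were below the lowest WT library, replicate 5 reached 26.6 CPM, and the log2 fold change was -0.32 (SE 0.21, unadjusted p 0.141), and -0.23 without the shallow pair.

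Of the remaining genes of these steps, Acat2, which condenses acetyl-CoA units, had -0.08 and turned to 0.09 without the shallow pair. Fdft1, squalene synthase, had -0.15 (95% interval -0.50 to 0.21). Ggps1, which makes the longer isoprenoid used to anchor proteins, had 0.01 and turned to -0.12 without the pair. In GENCODE M21, Mvd overlaps Gm20388, Ggps1 overlaps Arid4b, Fdft1 overlaps Ctsb and Fdps overlaps Gm43738. Since no source used here says whether strand was used in counting, reads from such neighbours cannot be told apart with certainty.

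**Figure D3:**
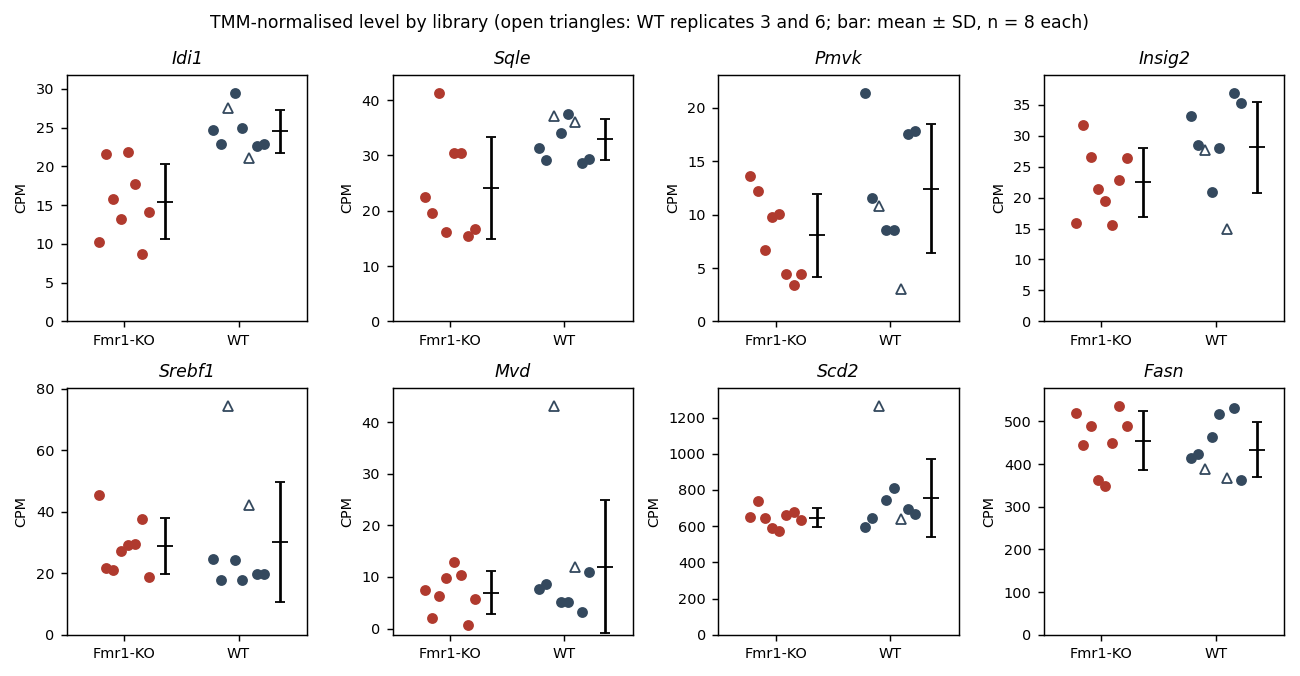
TMM-normalised level (CPM) of 8 of the genes in each library, with Fmr1-KO in red, WT in blue, open triangles for WT replicates 3 and 6, and the mean ± SD of 8 libraries at the right of each group. All 8 Fmr1-KO libraries are below the WT median in Idi1, and WT replicate 3 stands far above the rest in Srebf1, Mvd and Scd2. The lower end of the WT bar of Mvd is below 0 because the SD exceeds the mean.

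In the steps that follow squalene epoxidase, 6 of 9 genes were below 0, with a median of -0.13 (-0.19 without the shallow pair, and -0.21 without WT replicate 7). None of the 9 was under an unadjusted p of 0.05 in edgeR with 16 or 14 libraries, and the lowest adjusted p with 16 was 0.702. Ebp, the sterol isomerase on the X chromosome (X:8185329-8193512), had the lowest value. It stood at 0, 4.03 and 5.73 CPM in Fmr1-KO and at 3.01, 5.57 and 9.22 CPM in WT. The count of 0 was in Fmr1-KO replicate 1, where it allows a level of up to 1.41 CPM (3 counts). Its log2 fold change was -0.61 (SE 0.42), and -0.65 (SE 0.45) without the shallow pair. Its median count over the deeper libraries was 13.

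Sc5d, the sterol C5 desaturase at chr9:42251595-42264256, had the largest positive log2 fold change of the 32 genes. Its level was 17.1, 30.1 and 46.8 CPM in Fmr1-KO and 18.7, 23.8 and 41.1 CPM in WT. The Fmr1-KO range took in the whole WT range, and the log2 fold change was 0.18 (SE 0.21, unadjusted p 0.398), and 0.19 without the shallow pair. Tm7sf2, at chr19:6062821-6068373, stood at 5.63, 12.2 and 18.2 CPM in Fmr1-KO and at 9.03, 11.9 and 19.1 CPM in WT, and it overlaps Vps51 on the same strand. Its log2 fold change was -0.12 (SE 0.26). Msmo1, at chr8:64718139-64733792, stood at 6.61, 22.7 and 33.8 CPM in Fmr1-KO and at 19.1, 26.0 and 37.7 CPM in WT, a log2 fold change of -0.34 (SE 0.25, unadjusted p 0.186), and of -0.38 without the shallow pair.

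Dhcr7, the last reductase of one route to cholesterol, had -0.47 (SE 0.29) and -0.27 without the shallow pair. Its 2 highest WT levels were 42.1 CPM in replicate 6 and 32.1 CPM in replicate 8. Lss, which closes squalene epoxide into lanosterol, had -0.13, 0.19 without the pair and 0.20 without WT replicate 3 alone. That library held 84.0 CPM of Lss, against 18.9 to 34.4 in the other WT libraries. Cyp51, which removes the 14-methyl group of lanosterol and overlaps Akap9, had 0.02 and -0.11. Nsdhl, a dehydrogenase of the C4 demethylation step, had -0.20 and -0.19. Hsd17b7, the ketone reductase of that step, had 0.03 and 0.10.

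In the fatty acid branch 4 of 6 genes were below 0 in all 16 libraries and 3 of 6 without the shallow pair, with medians of -0.11 and -0.03. Without WT replicate 3 alone, the median was -0.00. With 16 libraries, and with 14, none was under an unadjusted p of 0.05 in edgeR. The lowest adjusted p with 16 libraries was 0.662. Scd2 was under an unadjusted p of 0.05, and lower in Fmr1-KO, without WT replicate 1, and Elovl6 without WT replicate 3. Fasn, at chr11:120805846-120824547, stood at 349, 469 and 536 CPM in Fmr1-KO and at 363, 419 and 531 CPM in WT. The groups covered the same range, and the log2 fold change was 0.07 (95% interval -0.15 to 0.28). That interval leaves room for a difference of less than 1.5-fold in either direction.

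Scd2, at chr19:44293674-44306864, stood at 573, 649 and 740 CPM in Fmr1-KO and at 597, 680 and 1263 CPM in WT. The highest WT value came from replicate 3, and the next was 812 CPM. The log2 fold change was -0.23 (SE 0.12, unadjusted p 0.0745) and, without the shallow pair, -0.10 (SE 0.08, 95% interval -0.26 to 0.06). Scd1, its paralogue at chr19:44394455-44407879, stood at 25.5, 33.1 and 41.4 CPM in Fmr1-KO and at 26.2, 29.2 and 106 CPM in WT. WT replicate 3 was again the highest, and the log2 fold change of -0.26 turned to 0.04 (SE 0.17) without the pair.

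Acly, at chr11:100476353-100528000, stood at 77.9, 96.9 and 130 CPM in Fmr1-KO and at 81.6, 104 and 115 CPM in WT, with a log2 fold change of -0.02 (95% interval -0.26 to 0.22). Acaca, acetyl-CoA carboxylase, which commits acetyl units to fatty acids, stood at 61.8, 77.9 and 91.7 CPM in Fmr1-KO and at 49.9, 66.3 and 113 CPM in WT. Its log2 fold change was 0.05 (SE 0.15), and 7 of 8 Fmr1-KO libraries lay above the WT median. Elovl6, which lengthens palmitate, had -0.20 (SE 0.22). The shallow pair held its lowest and its highest WT level, 15.6 CPM in replicate 3 and 132 CPM in replicate 6, and the log2 fold change without them was -0.22 (SE 0.13).

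Among the regulators, the SREBP genes gave unlike pictures of precision. Srebf2, at chr15:82147181-82205379, stood at 210, 261 and 278 CPM in Fmr1-KO and at 201, 259 and 308 CPM in WT. The medians nearly coincided, and the log2 fold change was -0.01 (SE 0.09, 95% interval -0.19 to 0.18), the narrowest interval of the 32 genes. Srebf1, at chr11:60199089-60222581, stood at 18.9, 28.2 and 45.5 CPM in Fmr1-KO and at 17.7, 22.1 and 74.4 CPM in WT. Its 2 highest WT libraries were the shallow replicates 3 (74.4 CPM) and 6 (42.1 CPM). On the log2 scale the difference was 0.05 (SE 0.28) with them and 0.48 (SE 0.20, unadjusted p 0.0238, adjusted p 0.644 in edgeR) without them. In the 14 deeper libraries 5 of 8 Fmr1-KO libraries exceeded the highest WT library, 24.7 CPM. In TPM over the deeper libraries, only Fmr1-KO replicate 7 (58.5) exceeded the highest WT library, replicate 7 (41.6). On log2(TPM + 1) the Srebf1 difference was 0.01 without the shallow pair, and with all libraries its direction turned, to -0.57. Srebf1 overlaps Rai1.

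Scap, at chr9:110333288-110384950, stood at 102, 110 and 146 CPM in Fmr1-KO and at 94.2, 108 and 137 CPM in WT, with a log2 fold change of 0.09 (SE 0.11) and of 0.18 (SE 0.10) without the shallow pair. On TPM values its direction turned, to -0.33 on log2(TPM + 1). Insig2, at chr1:121304353-121332589, stood at 15.6, 22.1 and 31.7 CPM in Fmr1-KO and at 15, 28.2 and 36.9 CPM in WT. Of the 8 Fmr1-KO libraries 7 lay below the WT median. The lowest WT value was that of shallow replicate 6, and 3 Fmr1-KO libraries lay below the lowest deeper WT library (20.9 CPM). Insig2 had a log2 fold change of -0.37 (SE 0.20, unadjusted p 0.0714) and, without the pair, -0.44 (SE 0.19, unadjusted p 0.0271, adjusted p 0.644 in edgeR). Insig1, a target of the SREBP proteins as well as their brake, at chr5:28071363-28078662, stood at 15.5, 21.1 and 36.1 CPM in Fmr1-KO and at 17.4, 25.4 and 36 CPM in WT. The ranges were nearly the same. The highest WT value of Insig1 was that of shallow replicate 3, and the deeper WT libraries reached 28.7 CPM. Its log2 fold change was -0.17 (SE 0.20), and -0.12 without the shallow pair.

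Without the shallow pair, then, 4 members were at an unadjusted p under 0.05 in edgeR. Pmvk, Idi1 and Insig2 were lower in Fmr1-KO, where 3.33% of all genes were, and Srebf1 was higher, where 3.99% were. No member passed the adjusted threshold in this set either (0.0169% of genes did).

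Cyp46a1, at chr12:108334381-108362234, stood at 140, 181 and 195 CPM in Fmr1-KO and at 159, 204 and 253 CPM in WT. All 8 Fmr1-KO libraries lay below the WT median, although 7 of them lay within the WT range. Cyp46a1 had a log2 fold change of -0.19 (SE 0.11, 95% interval -0.41 to 0.03) and -0.20 (SE 0.10) without the shallow pair, with unadjusted p of 0.0875 and 0.0716. Stard4 had -0.11 (SE 0.39) and 0.11 (SE 0.37), too imprecise at a median count of 18.5 to place on either side of 0.

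The branches were then set against each other within each library. The summed level of the 19 sterol genes was 375, 434 and 507 CPM in Fmr1-KO (435 ± 47.1, mean ± SD, n = 8) and 455, 478 and 579 CPM in WT (495 ± 41.7, n = 8). Of the 8 Fmr1-KO libraries 5 lay below the lowest WT library. Without the shallow pair the WT mean was 483 ± 28.9 CPM (n = 6). The summed level of the 6 fatty acid genes was 1141, 1419 and 1497 CPM in Fmr1-KO (1373 ± 136) and 1273, 1404 and 1967 CPM in WT (1479 ± 234). For that branch 2 of 8 Fmr1-KO libraries lay below the WT range, and without the pair the WT mean was 1424 ± 144 CPM. Scd2 and Fasn made up most of the fatty acid sum. Hmgcs1 was the largest single part of the sterol sum but a minor share of it, with means of 114 (Fmr1-KO) and 120 (WT) CPM.

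The ratio of the sterol sum to the fatty acid sum was 0.321 ± 0.0576 in Fmr1-KO and 0.340 ± 0.0456 in WT, and 0.343 ± 0.0484 in the 6 deeper WT libraries. The difference was smaller than the SD of either genotype. In TPM the ratio was 0.877 ± 0.146 in Fmr1-KO and 0.988 ± 0.114 in WT, again overlapping. With Hmgcs1 and Scd2 left out it was 0.453 ± 0.0933 and 0.528 ± 0.101 in CPM. The 6 deeper WT libraries stood nearer to Fmr1-KO in both, at 0.957 ± 0.117 in TPM and 0.503 ± 0.09 without Hmgcs1 and Scd2. No p is given for these sums, since the members were chosen with results known. The median log2 fold change of the sterol branch minus that of the fatty acid branch was -0.09, and -0.15 without the shallow pair. When 1 library was left out it lay between -0.29 (Fmr1-KO replicate 4) and -0.03 (WT replicate 8).

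**Figure D4:**
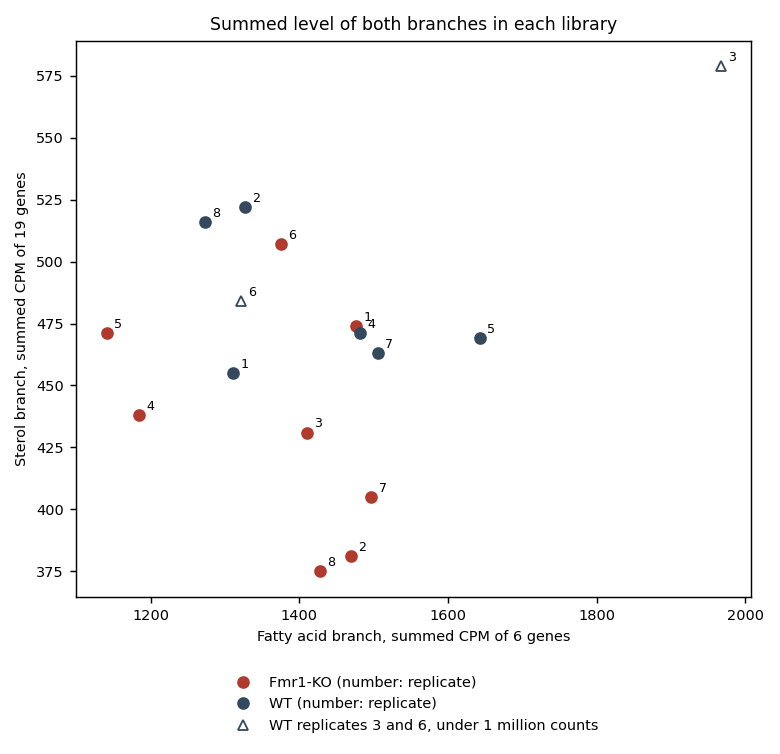
Summed level of the sterol branch (CPM, 19 genes) against that of the fatty acid branch (CPM, 6 genes), 1 point per library, numbered by replicate. Fmr1-KO libraries reach down to 375 CPM on the sterol axis where WT libraries start at 455, the fatty acid sums overlap, and WT replicate 3 stands apart at 579 and 1967 CPM.

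The lower sterol sums were not one set of libraries low in all genes. Counted against the median of the 14 deeper libraries, 5 to 12 of the 19 sterol genes were above it in a Fmr1-KO library and 9 to 16 in a deeper WT library. Fmr1-KO replicates 2 and 7 had 5 such genes each, and replicate 5 had 12. The same replicate 5 had 0 of 6 fatty acid genes above the median, and WT replicate 2, with 16 sterol genes above it, also had 0. WT replicate 3 had the highest level of the 8 WT libraries in 12 of the 32 genes and the highest of all 16 libraries in 10.

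**Figure D5:**
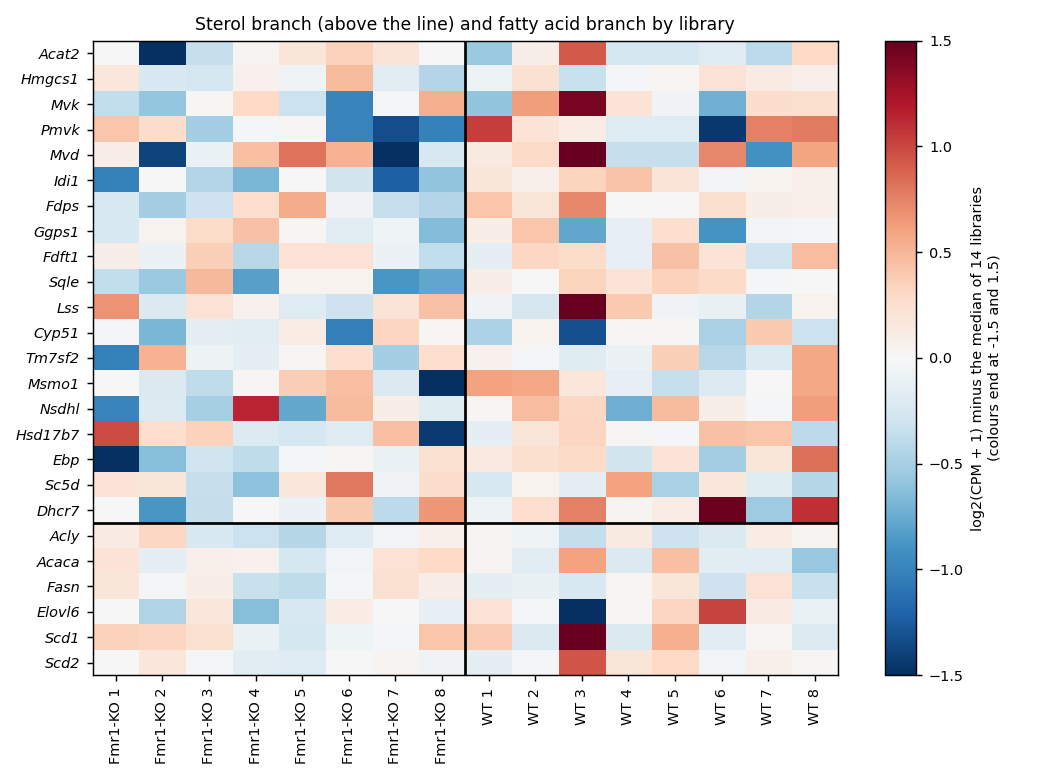
Each cell is log2(CPM + 1) of a sterol gene (upper rows) or fatty acid gene (lower rows) in a library, minus the median of the 14 deeper libraries, with colours ending at -1.5 and 1.5. Low cells in Fmr1-KO are scattered over genes and libraries, the Idi1 row is near or below 0 in the Fmr1-KO columns, and the WT 3 column holds strong colours in Mvd, Lss and Scd1.

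Most cholesterol synthesis in brain is attributed to glia, so cell type markers were read beside these values. Markers of CA1 pyramidal cells overlapped between the genotypes: the summed level of 6 such genes was 2447 to 2644 CPM in Fmr1-KO and 2285 to 2745 CPM in WT, with a median log2 fold change of -0.09. Astrocyte markers were below 0 for 11 of 11 genes (median -0.38), which became 8 of 11 (median -0.11) without the shallow pair. Their sum was 1658 to 2609 CPM in Fmr1-KO, 1891 to 2561 CPM in the 6 deeper WT libraries and 5533 CPM in WT replicate 3. WT replicate 3, the library that raised the WT level of Mvd, Lss, Scd1, Scd2 and Srebf1, also held the highest astrocyte sum. Its sums for microglia (501 CPM, against 198 to 275 in the deeper WT libraries), oligodendrocyte precursors (205 CPM, against 65.8 to 98.1) and endothelium and pericytes (463 CPM, against 104 to 201) were high as well. Its oligodendrocyte sum (593 CPM) lay within the deeper WT range of 266 to 721 CPM. WT replicate 6 was also high in precursors (162 CPM) and in endothelium and pericytes (295 CPM), but not in astrocytes (1862 CPM) or microglia (211 CPM).

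Oligodendrocyte markers were below 0 for 9 of 9 tested genes (median -0.37) and for 10 of 10 without the shallow pair (median -0.38). Their sum was 239 to 477 CPM in Fmr1-KO and 266 to 721 CPM in WT, overlapping. Markers of oligodendrocyte precursors (4 of 4, median -0.52), microglia (8 of 8, median -0.34) and endothelium and pericytes (10 of 10, median -0.55) were also below 0, and their medians without the pair were -0.14, -0.21 and -0.34. Interneuron markers were below 0 for 6 of 8, with a median of -0.23 and sums of 362 to 776 CPM in Fmr1-KO and 505 to 754 CPM in WT. No marker on any of these lists passed the adjusted threshold in edgeR. At an unadjusted p under 0.05, 2 astrocyte, 2 precursor, 1 microglial and 2 endothelial markers were lower. The part of cell type content in the values of the sterol genes was not tested.

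Markers of tissue beside CA1 gave a mixed picture. The dentate, CA2 and CA3 markers C1ql2, Dsp, Iyd and Pcp4, the choroid plexus markers Ttr and Folr1, and the meningeal markers Dcn and Lum were at 0 in at least 8 of the 16 libraries. Others on the same lists were counted well: Rgs14 at 125 to 184 CPM in Fmr1-KO and 96.3 to 163 CPM in WT, Kl at 61 to 94.5 and 30 to 111 CPM, and Enpp2 at 53.3 to 76.1 and 51.1 to 86.4 CPM. The summed levels of these lists were 153 to 214 and 143 to 187 CPM for the other hippocampal fields (Fmr1-KO and WT), 124 to 155 and 116 to 162 CPM for choroid plexus, and 4.31 to 27.5 and 8.97 to 63.2 CPM for meninges.

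The deposited tables hold 159 transcripts of the 32 genes. Of these, 39 transcripts of 30 genes passed the filter, and edgeR called 0 of them, against 1 of 16772 transcripts (0.00596%). The lowest adjusted p was 1 (edgeR). At an unadjusted p under 0.05 there was 1 member transcript, where 3.91% of all were. It was Idi1-001, which carried 97.5% of Idi1 counts and averaged 15.3 ± 4.84 CPM in Fmr1-KO against 23.9 ± 2.92 CPM in WT (SD, n = 8 each), a log2 fold change of -0.63 (SE 0.24, unadjusted p 0.0154). No transcript of Tm7sf2 or Ebp passed.

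The transcripts also show what a gene's count is made of. In 24 of the 32 genes over 90% of counts lay on protein-coding transcripts. The other 8 were Mvk, Sqle, Lss, Tm7sf2, Msmo1, Ebp, Dhcr7 and Srebf1. Among the 24, however, 8 have a single annotated transcript, and Pmvk, Sc5d and Elovl6 have only protein-coding ones. For these genes the share is 100% by annotation, whatever the counts. Lss had the lowest share: 29.2% of its counts lay on protein-coding transcripts and 69.4% on transcripts annotated as retaining an intron. For Ebp those shares were 53.3% and 46.7%, for Tm7sf2 51.4% and 36.3%, and for Sqle 83.2% and 16.8%. The protein-coding share of Lss was 27.2% in Fmr1-KO and 31.4% in WT, and it ranged from 3.66% to 87.1% between the deeper libraries. Srebf1 counts were divided mainly among 3 protein-coding transcripts with 31.6%, 30.3% and 21.1%, none of them at an unadjusted p under 0.05. How the model divides reads among such transcripts limits the precision of each share.

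Genes next to the pathway were read from lists of the same kind. Of 22 genes for elongation, desaturation and activation of fatty acids 20 were tested, 13 were below 0 and the median was -0.12. Acsl3, an acyl-CoA synthetase, had the smallest p. It stood at 87.0, 107 and 126 CPM in Fmr1-KO and at 119, 122 and 137 CPM in WT, a log2 fold change of -0.24 (SE 0.09, unadjusted p 0.0193, adjusted p 0.59 in edgeR). Among 9 genes of sterol sensing and SREBP processing 4 were below 0 (median 0.06), and Erlin2, part of the complex that degrades sterol-regulated proteins, had 0.34 (SE 0.16, unadjusted p 0.0422). Of 10 genes of the isoprenoid branches 6 were below 0 (median -0.15). Of 14 tested genes for export, uptake and esterification of cholesterol 6 were below 0 (median 0.02), and Lrp1, a lipoprotein receptor, had 0.23 (SE 0.11, unadjusted p 0.0527). edgeR called 0 genes on each of these lists.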

How the data were processed

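CA1 RNA from 8 Fmr1-KO and 8 WT libraries was extracted (Maxwell 16 LEV kit) for Illumina HiSeq sequencing, per the labels' protocols. FastQC, cutadapt, kallisto and DESeq2 are named per the submitters' processing notes. No source used here gives versions, a genome build or a transcript index. The deposited estimated counts and TPM are the authors' values per transcript, for 111706 transcripts per library, with transcript length and effective length (other) beside them. Estimated counts divide reads among transcripts that share sequence, and TPM holds no depth.

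Estimated counts were summed by symbol, rounded, and tested with edgeR 4.0.16 in R 4.3.3 (quasi-likelihood test, TMM, filterByExpr with a minimum count of 10, no covariate, Benjamini-Hochberg adjustment, threshold 0.05). Totals ranged from 515103 to 3275003 per library. The test was fitted on all genes, and transcripts were tested likewise. The standard error is the log2 fold change divided by the square root of F, and intervals are 95%. The edgeR step was tested on simulated data. Alternatives used DESeq2 1.42.0, limma 3.58.1, other scalings and filters, TPM, covariates and fewer libraries. TPM fits were centred on the median of the tested genes in each library, because without it that median differed by 0.55 between genotypes on log2(TPM + 1) and by 0.62 on log2(TPM + 0.1). DESeq2 and log2(TPM + 1) without WT replicates 3 and 6 were chosen after seeing the data.

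The members and the other lists were chosen with earlier results of these data known. Values by library are given for members at an unadjusted p under 0.05, for the 4 sterol and 3 fatty acid members highest in TPM, for the 4 largest log2 fold changes in each direction and for 3 pairs of paralogues. Other lists are named by their smallest p. Gene positions and overlaps come from GENCODE M21 (GRCm38) and promoters from RefSeq (GRCm38.p6). Replicates were numbered in accession order, and the numbers pair nothing.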

Additional observations from a re-analysis of the deposited data

Results flagged for a closer look

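Each genotype's 8 libraries were checked for a single value standing apart in the 32 genes, the summed level of each branch and their ratio, which makes 70 groups. A value was taken when its gap to the nearest other library, divided by the range of the group, exceeded the 95% critical value of Dixon's test. Chance gives about 1 in 20 groups, and 11 were found.

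Of the 11, 8 were the highest WT value and came from WT replicate 3, a library of 878484 counts. The genes were Acat2 (33.6 CPM, others 11.4 to 21.5), Mvk (30.0 CPM, others 6.02 to 16.8), Mvd (43.2 CPM, others 3.23 to 12), Lss (84.0 CPM, others 18.9 to 34.4), Scd1 (106 CPM, others 26.2 to 44.9), Scd2 (1263 CPM, others 597 to 812), Srebf1 (74.4 CPM, others 17.7 to 42.1) and Stard4 (21.6 CPM, others 2.99 to 10.5). This library was also high in markers of astrocytes (5533 CPM), microglia (501 CPM), oligodendrocyte precursors (205 CPM) and endothelium and pericytes (463 CPM). Its oligodendrocyte sum (593 CPM) lay within the range of the deeper WT libraries. The part of cell type content in these values was not tested.

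The other 3 were the lowest value of a Fmr1-KO library. Acat2 was at 2.03 CPM in Fmr1-KO replicate 2 (others 13.4 to 22.3), Srebf2 at 210 CPM in replicate 4 (others 249 to 278) and Cyp46a1 at 140 CPM in replicate 1 (others 169 to 195).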

How the results depend on the processing

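Across 29 alternatives, 13 of them other than leaving out 1 library, 0 members passed the adjusted threshold, and 17 of the 32 kept their sign in all. DESeq2 on all libraries gave most members no adjusted p and could not call them. No paired analysis was possible because the genotypes share no animal number. At a depth of 515103 to 3275003 counts, the intervals of 20 members reached past 1.5-fold. Where a value moved, the cause was not tested.

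Genes called over the whole table were 11 with DESeq2 (11 also without the shallow pair), 7 with limma-voom, 5 without a filter and 1 in each TPM fit, against 2. Members lower at an unadjusted p under 0.05 were 1 with library totals, 1 without a filter, 1 with a minimum of 1 CPM, 4 with DESeq2, 6 with limma-voom, 4 with animal number as random effect and 1 to 3 when 1 library was left out, against 2. Members higher were 1 without the shallow pair, in edgeR and in DESeq2. The sterol median was -0.38 on log2(TPM + 1). The ratio of the branches was 0.877 in Fmr1-KO and 0.988 in WT on TPM, and 0.453 and 0.528 without Hmgcs1 and Scd2. In the 6 deeper WT libraries these ratios were 0.957 and 0.503.

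The log2 fold change turned sign as follows. Without the shallow pair, edgeR and DESeq2 gave -0.11 and -0.10 for Cyp51, -0.12 and -0.11 for Ggps1, 0.03 and 0.03 for Mvd, 0.04 and 0.04 for Scd1, 0.09 and 0.09 for Acat2, 0.11 and 0.12 for Stard4, and 0.19 and 0.20 for Lss. DESeq2 on all libraries gave -0.01 for Ggps1. The random effect gave -0.03 for Cyp51, -0.04 for Hsd17b7, -0.08 for Ggps1, 0.06 for Stard4 and 0.08 for Lss. limma-voom gave -0.05 for Hsd17b7, -0.12 for Cyp51, -0.13 for Ggps1, 0.08 for Scd1, 0.17 for Lss and 0.23 for Stard4. The letter as covariate gave -0.03 for Hsd17b7. Library totals gave 0.01 for Acly and 0.03 for Srebf2, a minimum of 1 CPM 0.00 and no filter 0.01 for Srebf2.

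On log2(TPM + 1) and log2(TPM + 0.1) the values were -0.21 and -0.18 for Cyp51, -0.33 and -0.37 for Scap, -0.57 and -0.62 for Srebf1, 0.05 and 0.02 for Acly, 0.05 and 0.02 for Srebf2, and 0.06 and 0.35 for Stard4. On log2(TPM + 1) without the shallow pair they were -0.05 for Fasn, -0.15 for Ggps1, -0.21 for Scap, -0.34 for Cyp51, 0.02 for Acly, 0.04 for Scd1, 0.26 for Stard4 and 0.27 for Dhcr7.

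With 1 library left out, the values ranged from -0.16 to 0.09 for Acat2, -0.06 to 0.10 for Ggps1, -0.22 to 0.20 for Lss, -0.08 to 0.12 for Cyp51, -0.14 to 0.17 for Hsd17b7, -0.08 to 0.03 for Acly, -0.02 to 0.15 for Acaca, -0.34 to 0.06 for Scd1, -0.07 to 0.39 for Srebf1, -0.05 to 0.04 for Srebf2 and -0.29 to 0.17 for Stard4.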
